A study of Caenorhabditis elegans with 2 samples.

Results

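The 10 genes described here encode proteins of the basement membrane and 2 peroxidasins: the laminin subunit genes lam-1, lam-2, lam-3 and epi-1, the collagen IV chain genes emb-9 and let-2, the perlecan gene unc-52, the nidogen gene nid-1, and the peroxidasin genes pxn-1 and pxn-2. They were chosen by name, with earlier results of these data known, as 10 of 19973 nuclear protein-coding genes. Each was taken with its body and 2 kb to either side. The data come from chromatin immunoprecipitation followed by sequencing (ChIP-seq) of UNC-39, a transcription factor with a homeodomain of the Six4/Six5 class, in Caenorhabditis elegans. Both libraries are biological replicates of a single group: whole embryos of mixed stage and mixed sex from strain OP186, whose genotype is unc-119(ed3) III with the transgene wgIs186. That transgene makes UNC-39 fused to eGFP, so the animals carry the tagged protein in an unc-119 mutant background, and no group without it is analysed here. The labels do not say what drives the transgene, and whole embryos mix all tissues, so a region cannot be assigned to a cell type. The antibody label reads unc-39 although the labels describe the experiment as directed at the eGFP fusion, and which antibody was used is not given there. With 1 group and 2 libraries no test between groups was possible, and all values below are descriptions.

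A basement membrane is a thin sheet of extracellular matrix that lines tissues and wraps muscle, gut, gonad and nerves. Laminin trimers of 1 alpha, 1 beta and 1 gamma chain form a first network at the cell surface, and collagen IV trimers form the covalently linked network that gives the sheet its tensile strength. Perlecan and nidogen are held between them. Peroxidasins are secreted heme peroxidases, which in mammals and flies make the sulfilimine bonds that link collagen IV molecules. In C. elegans much of the collagen IV, perlecan and laminin is made by body wall muscle, a tissue of mesodermal origin, and UNC-39 is known for roles in mesoderm and in cell migration.

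The 4 peak lists in ce11 coordinates were used as deposited. The called list, which passed the authors' irreproducible discovery rate threshold, is the shortest and held regions with signals of 44.4 to 172.6 (median 54.59). The relaxed lists, made to include background, held 9046 regions for the pooled replicates (signal 18.32 to 172.6), 15880 for replicate 1 (9.745 to 87.81) and 30000 for replicate 2 (5.841 to 84.75). Signal is the score given to each region by the authors' peak caller against a control. It is the authors' own value per region and is compared here only within a list, with rank 1 as the highest signal. The lists hold no read counts, so sequencing depth is unknown. A region was given to a gene by its summit, the position of highest signal within it.

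A set of 4 windows carries the main observations and is printed from the RefSeq copy of WBcel235, the assembly that ce11 names, each 5′ to 3′ on the strand of its gene. The first is centred on the called summit inside pxn-1 (chrV:8500464-8500664, plus strand), and its capitals mark the small nucleolar RNA (snoRNA) gene ZK994.7. The second is the sequence around the called summit just past the 3′ end of lam-1 (chrIV:5183747-5183932, plus strand), without the bases that belong to the last exon. The third is centred on the strongest pooled summit in a coding exon of any of the 10 genes, in unc-52 (chrII:14665802-14666002, minus strand), and it begins in the end of the preceding intron. The fourth is centred on a coding summit of emb-9 that the replicate 2 list holds and the replicate 1 list does not (chrIII:9340247-9340447, minus strand). Its capitals mark the 23 in-frame glycine codons of the collagen repeat.
pxn-1 intron: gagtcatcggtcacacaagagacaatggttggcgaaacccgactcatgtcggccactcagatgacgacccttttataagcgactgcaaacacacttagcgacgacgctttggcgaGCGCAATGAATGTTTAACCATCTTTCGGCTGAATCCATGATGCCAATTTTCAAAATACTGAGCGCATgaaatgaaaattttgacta
lam-1 3′ flank: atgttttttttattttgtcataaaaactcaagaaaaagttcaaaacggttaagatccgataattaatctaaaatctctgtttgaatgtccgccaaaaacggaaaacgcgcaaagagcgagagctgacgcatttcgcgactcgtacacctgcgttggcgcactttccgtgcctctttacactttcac
unc-52 exon: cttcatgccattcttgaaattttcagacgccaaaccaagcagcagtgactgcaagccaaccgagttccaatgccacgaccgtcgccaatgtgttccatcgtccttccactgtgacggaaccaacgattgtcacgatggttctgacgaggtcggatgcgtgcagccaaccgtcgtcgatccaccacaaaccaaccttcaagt
emb-9 exon: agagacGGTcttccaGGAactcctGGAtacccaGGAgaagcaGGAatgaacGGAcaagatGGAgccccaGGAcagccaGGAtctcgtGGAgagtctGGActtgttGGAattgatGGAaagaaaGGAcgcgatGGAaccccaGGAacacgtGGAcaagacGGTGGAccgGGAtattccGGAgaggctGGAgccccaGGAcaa

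Among the 10 genes, 2 had a called summit in the gene or within 2 kb (20%): the peroxidasin gene pxn-1 and the laminin beta gene lam-1. Over all protein-coding genes 2.03% had one (406 of 19973). The members were chosen with earlier results known, so their share was not tested against this one. The members are long genes, with a median length of 8155.5 bp against 2027 bp over all protein-coding genes, and a longer gene offers more sequence to hold a summit. Among the 1846 protein-coding genes at least as long as the shortest member (nid-1, 7115 bp), 3.9% had a called summit. The count rests on 2 regions of very different rank and position, each described next. With called regions within 200 bp of a snoRNA gene left out, a choice made after seeing the data, lam-1 was the 1 member left (against 1.8% of all genes). With as many of the strongest regions of replicate 1 or of replicate 2 as the called list holds, pxn-1 was the 1 member left (against 1.95% and 1.94%).

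pxn-1 (WBGene00004256, chromosome V, 8494889 to 8502442, plus strand) held the strongest region of any member in every list. Its called region had a signal of 112.7 and ranked 7 in the called list (uppermost 2.62%) and 7 of 9046 in the pooled list. In replicate 1 the region had a signal of 69.12 and ranked 3 of 15880, with its summit 1 bp from the called one. In replicate 2 it had a signal of 43.13 and ranked 25 of 30000, with its summit 8 bp away. It thus stood at 0.0189% of the replicate 1 list and 0.0833% of the replicate 2 list, at almost the same base. No other region of the members stood that high in either library.

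The pxn-1 summit was not at the start of the gene. It lay at position 8500564, 5675 bp downstream of the transcription start site (TSS), in intron 17 of a gene with 22 exons. That intron is 341 bp long and contains ZK994.7 (WBGene00044958, 8500579 to 8500645, plus strand), a snoRNA gene of 67 nt. snoRNAs guide chemical modification or processing of other RNAs, mostly ribosomal RNA, and many are made from introns of host genes. The called summit fell 15 bp before the first base of ZK994.7, and the replicate 1 and replicate 2 summits 16 and 7 bp before it. In the first sequence above, the summit is base 101 and the snoRNA gene starts shortly after it.

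The called list held further regions beside snoRNA genes. In 26 of the called regions the summit lay at most 200 bp from a snoRNA gene, and in 13 of these the summit was in an intron of a protein-coding gene. The pxn-1 region was the 2nd strongest of the 26 by signal, between neighbours of 138.7 and 99.28, against a median of 60.74 for the 26. Of 216 snoRNA genes inside protein-coding genes, 14 had a called summit within 200 bp (6.48%), and of 130 outside protein-coding genes 13 had one (10%). Among the 192 protein-coding genes with a snoRNA gene inside, 12% had a called summit in the gene or within 2 kb (23 genes), beside the snoRNA gene or not. The share was 2.03% for all protein-coding genes and 3.9% for those at least as long as the shortest member. The host genes had a median length of 5609.5 bp, against 2027 bp for all. Whether the signal at this place bears on pxn-1, on the snoRNA gene or on neither was not tested. The 3 tRNA genes inside pxn-1 had no summit of any list within 200 bp, and their closest pooled summits were 5190, 4389 and 928 bp away.

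Little else was listed at pxn-1. Upstream of its TSS, replicate 1 had a summit at 497 bp (signal 10.75, rank 11910 of 15880) and replicate 2 one at 236 bp (signal 7.699, rank 17136 of 30000), both in the weaker part of their lists. These upstream regions overlapped, with summits 261 bp apart, and the pooled list had no region there. Replicate 2 had 1 further summit, in exon 18 (signal 13.08, rank 2929).

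pxn-2, the second peroxidasin gene (WBGene00004257, chromosome X, 10972164 to 10979286, minus strand), is needed in the worm for embryonic morphogenesis and axon positioning. It had no called and no pooled summit. Replicate 1 had 2 summits, one 5 bp upstream of the TSS (signal 10.74, rank 11984 of 15880) and one in exon 7 (signal 11.59, rank 9323). Replicate 2 had 3, of which the strongest lay in exon 12 (signal 9.498, rank 9642 of 30000). The libraries named different places in pxn-2, and no replicate 1 region overlapped a replicate 2 region.

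**Figure D1:**
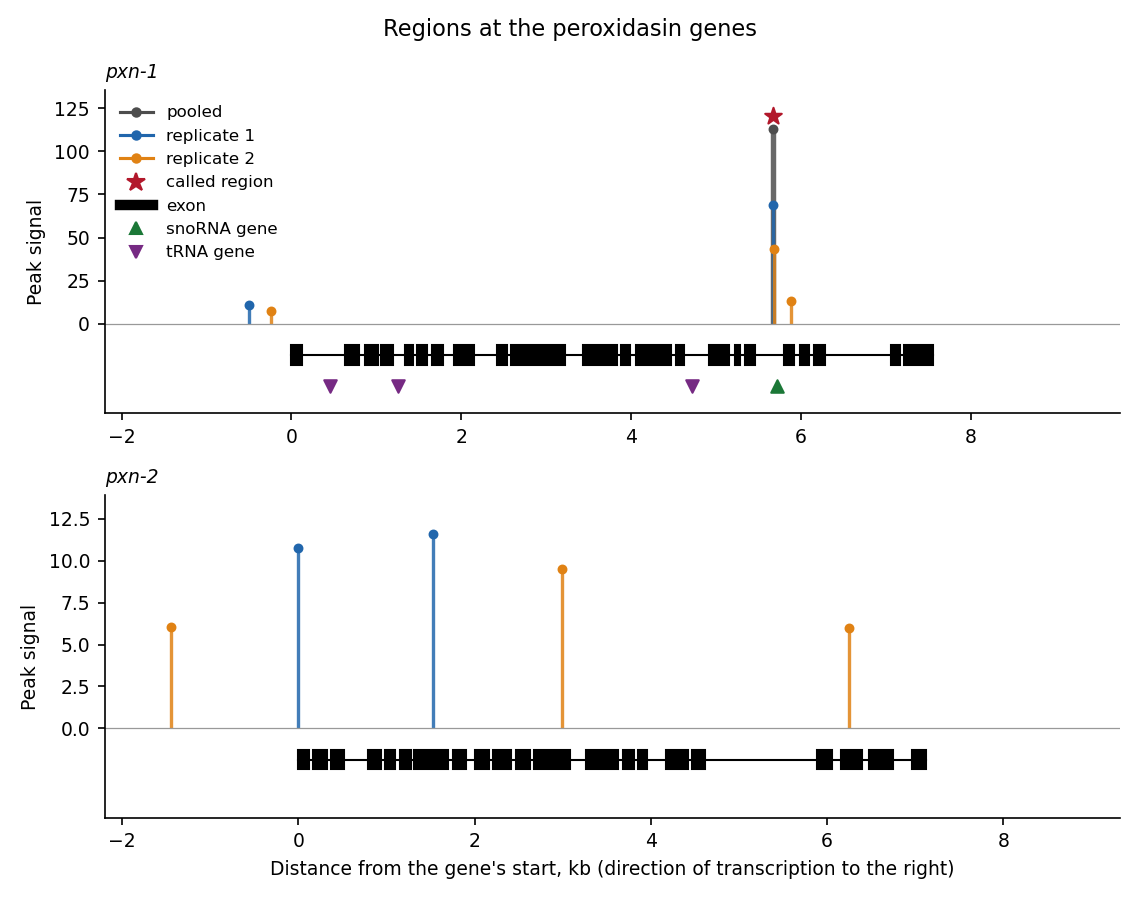
Peak signal at each summit against distance from the gene's start in kb, for pxn-1 above and pxn-2 below, in the direction of transcription. Lines are summits of the pooled, replicate 1 and replicate 2 lists (each list has its own signal scale), the star marks the called region, black boxes are exons, and triangles are snoRNA and tRNA genes. The tall lines at pxn-1 (112.7, 69.12 and 43.13) stand together beside the snoRNA gene at 5675 bp, while no line at pxn-2 passes 11.59.

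lam-1 encodes the laminin beta chain (WBGene00002247, chromosome IV, 5173332 to 5183746, plus strand). Its called region had a signal of 46.55 and ranked 234 in the called list, close to its lower end (87.6% of the way down). In the pooled list the same region ranked 234 of 9046 (2.59%). Replicate 1 held it with a signal of 25.96 at rank 310 of 15880, and replicate 2 with 22.04 at rank 301 of 30000. It was thus high in both libraries but, in each, just outside as many of the strongest regions as the called list is long.

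The summit lay at position 5183832, 86 bp past the 3′ end of lam-1 and 291 bp upstream of the TSS of W03F8.4, the next gene on the same strand (WBGene00020994, 5184123 to 5185243). W03F8.4 was the gene with the nearest TSS. The replicate 1 summit was 47 bp and the replicate 2 summit 37 bp from the called one, both nearer to W03F8.4. No annotated noncoding RNA gene lay within 200 bp. At the 5′ end of lam-1 the lists held less. A pooled summit in intron 1, 428 bp downstream of the TSS, had a signal of 20.66 (rank 5747 of 9046) and was held by replicate 2 only (signal 13.07, rank 2938). A pooled summit in intron 8 had a signal of 24.11 (rank 3040) and was held by both libraries, at rank 5863 in replicate 1 and 5172 in replicate 2.

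lam-2 encodes the gamma chain (WBGene00016913, chromosome X, 7143846 to 7151239, minus strand) and had no called summit. Its strongest pooled region (signal 27.72, rank 1646 of 9046) lay 637 bp upstream of the TSS. Replicate 2 held it at rank 8472 of 30000 and replicate 1 did not list it. The noncoding RNA gene C54D1.9 lay within 200 bp of the pooled summit. The other pooled region, in exon 9, had a signal of 26.51 (rank 2004) and was in both replicate lists, at rank 2659 in replicate 1 and 11442 in replicate 2. The upstream region, the one in promoter position, was thus the one that a single library held.

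The worm has 2 laminin alpha chains, encoded by lam-3 and epi-1, which go to largely different tissues. lam-3 (WBGene00002248, chromosome I, 10608466 to 10621435, plus strand) had 2 pooled regions, and both replicates held each of them. The stronger had a signal of 26.46 (rank 2012), 1720 bp upstream of lam-3. Its summit, at position 10606746, lay just past the 3′ end of pash-1, the neighbouring gene for a microRNA processing factor (10598673 to 10606621, plus strand). The nearest TSS was one inside pash-1, with the summit 1707 bp downstream of it. The summits of the same region in replicate 1 and replicate 2 were nearest to the lam-3 TSS, 1625 and 1650 bp upstream of it. Its ranks were 1885 of 15880 in replicate 1 and 10405 of 30000 in replicate 2. The other had a signal of 23.91 and lay in exon 9.

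epi-1 (WBGene00001328, chromosome IV, 10666823 to 10679291, plus strand) had 4 pooled regions, and the libraries differed over them. The exon 2 region (pooled signal 27.18, rank 1813) ranked 796 of 15880 in replicate 1 with a signal of 20.41, and 11494 of 30000 in replicate 2. The exon 9 region was the reverse: replicate 2 gave it a signal of 22.04 at rank 300 of 30000, replicate 1 did not list it, and its pooled signal of 18.81 ranked 8232 of 9046. A region in exon 10 (pooled signal 27.13) and one 857 bp upstream of the TSS (20.11) were held by replicate 2 only. The strongest epi-1 region of each library was therefore a different exon.

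**Figure D2:**
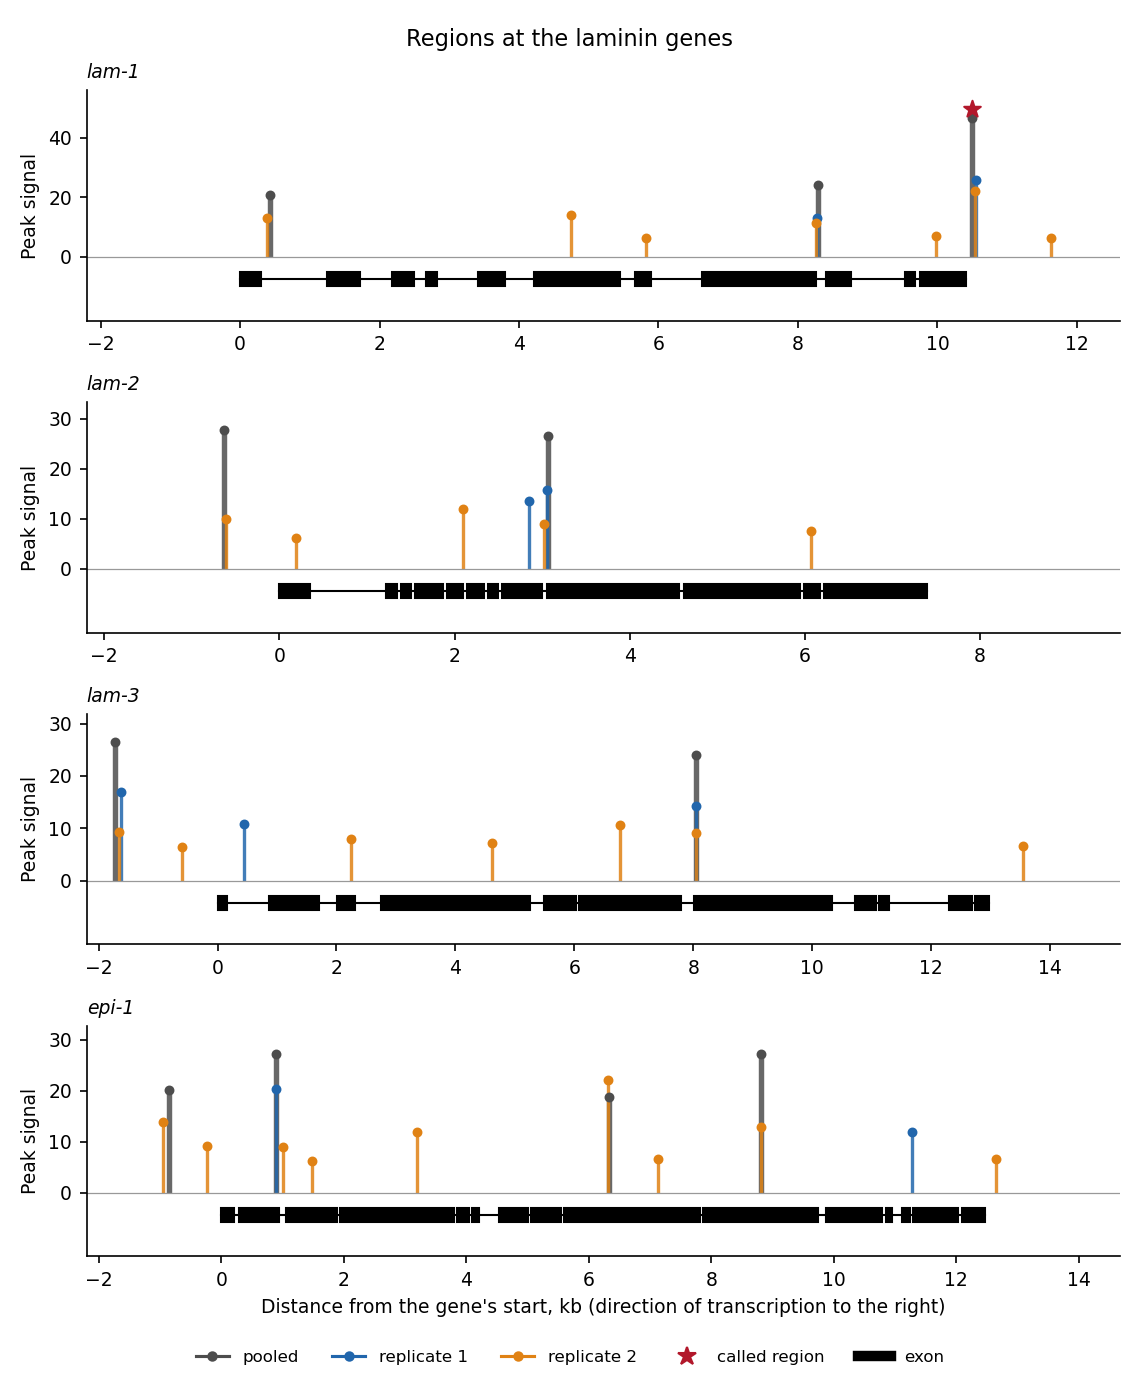
Peak signal at each summit against distance from the gene's start in kb, for the 4 laminin genes, in the direction of transcription. Lines are summits of the pooled, replicate 1 and replicate 2 lists (each list has its own signal scale), the star marks the called region and black boxes are exons; the lam-1 region with a pooled signal of 46.55 stands past the last exon, and the epi-1 line of 22.04 in exon 9 has no replicate 1 line beside it.

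Collagen IV in the worm is a trimer of the EMB-9 and LET-2 chains. emb-9 (WBGene00001263, chromosome III, 9336881 to 9344447, minus strand) had 4 pooled regions and the highest density of pooled summits of the 10 genes, 3.46 per 10 kb. Of these regions 3 lay in coding exons. The strongest, in exon 10 (signal 28.51, rank 1459 of 9046), ranked 773 of 30000 in replicate 2 with a signal of 17.71, but 15672 of 15880 in replicate 1 with a signal of 9.799, near the end of that list. The exon 9 region printed above (signal 26.95, rank 1869) ranked 876 in replicate 2 and was not in the replicate 1 list. The other exon 10 region (signal 21.13) ranked 2117 in replicate 2 and 9297 in replicate 1. These 3 coding regions of emb-9 were thus strong in replicate 2 and weak or missing in replicate 1.

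These 3 emb-9 windows fell on the Gly-X-Y repeat, the sequence that lets collagen chains wind into a triple helix. Of their whole codons 34.3% (23 of 67), 31.8% (21 of 66) and 28.8% (19 of 66) encoded glycine, near the 1 in 3 of the repeat. In the 11 pooled windows in coding exons of the other members glycine codons made up 1.49 to 10.6%. The share over the rest of the emb-9 coding sequence was not counted. These values therefore describe the collagen gene and do not show that summits favour the repeat within it. The GC content of the printed emb-9 window was 56.2%, the highest value among the 26 pooled member windows, which the exon 15 window of unc-52 shared.

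let-2, the gene of the other chain (WBGene00002280, chromosome X, 16380597 to 16389340, minus strand), had no called or pooled summit although it is longer than emb-9. Replicate 1 had 2 summits, with the stronger in the last exon and in its untranslated part (signal 13.67, rank 4956 of 15880). Replicate 2 had 7, 4 of them in coding exons and 3 upstream, with the strongest 1934 bp before the TSS (signal 11.22, rank 5378 of 30000). The nearest upstream summit was 59 bp from the TSS, with a signal of 7.346 (rank 19125). One let-2 region was shared between the libraries, a replicate 1 summit in intron 8 (signal 12.03) that overlapped a replicate 2 region with its summit in exon 10 (signal 10.36).

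unc-52 encodes perlecan, which anchors body wall muscle to the basement membrane, and is the longest member (WBGene00006787, chromosome II, 14647321 to 14684456, minus strand, 37136 bp). It had no called summit and 8 pooled ones, 5 of them in coding exons and 3 in introns. The strongest, in exon 14 and printed above, had a signal of 33.14 (rank 771 of 9046, 8.52%). It ranked 1355 of 15880 in replicate 1 with a signal of 18.18, and 1001 of 30000 in replicate 2 with a signal of 16.61. It was the strongest pooled region of the 10 genes after those of pxn-1 and lam-1, and its nearest TSS was that of a shorter unc-52 transcript, 950 bp away.

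The other unc-52 regions differed between the libraries. An exon 28 region (pooled signal 30.42) was in both, at rank 2811 in replicate 1 and 4603 in replicate 2. An exon 22 region (pooled signal 23.94) was the strongest of unc-52 in replicate 1, with a signal of 20.65 at rank 749, and was not in the replicate 2 list. An exon 15 region (pooled signal 23.76) ranked 1472 in replicate 2 and was not in the replicate 1 list. The weakest pooled region (signal 18.49) lay in intron 7, within the gene hhat-1 on the other strand, and was held by replicate 1 only. No pooled region lay in the 2 kb upstream of unc-52. Replicate 1 had summits there at 1204 bp (signal 10.35, rank 13391) and 1846 bp (signal 10.17, rank 14129). The second region overlapped a replicate 2 region (signal 14.32, rank 1917) whose summit, 203 bp away, lay outside the 2 kb.

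nid-1 encodes nidogen (WBGene00003738, chromosome V, 12910107 to 12917221, plus strand), which in the worm is needed for positioning of axons and synapses. It was the only one of the 10 genes with no summit in replicate 1. Both of its pooled regions came with replicate 2 regions: one 1108 bp upstream of the TSS (pooled signal 24.68, rank 2726; replicate 2 signal 16.75, rank 970 of 30000) and one in exon 3 (pooled signal 21.43; replicate 2 rank 12166). The upstream region was among the upper 3.23% of the replicate 2 list.

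**Figure D3:**
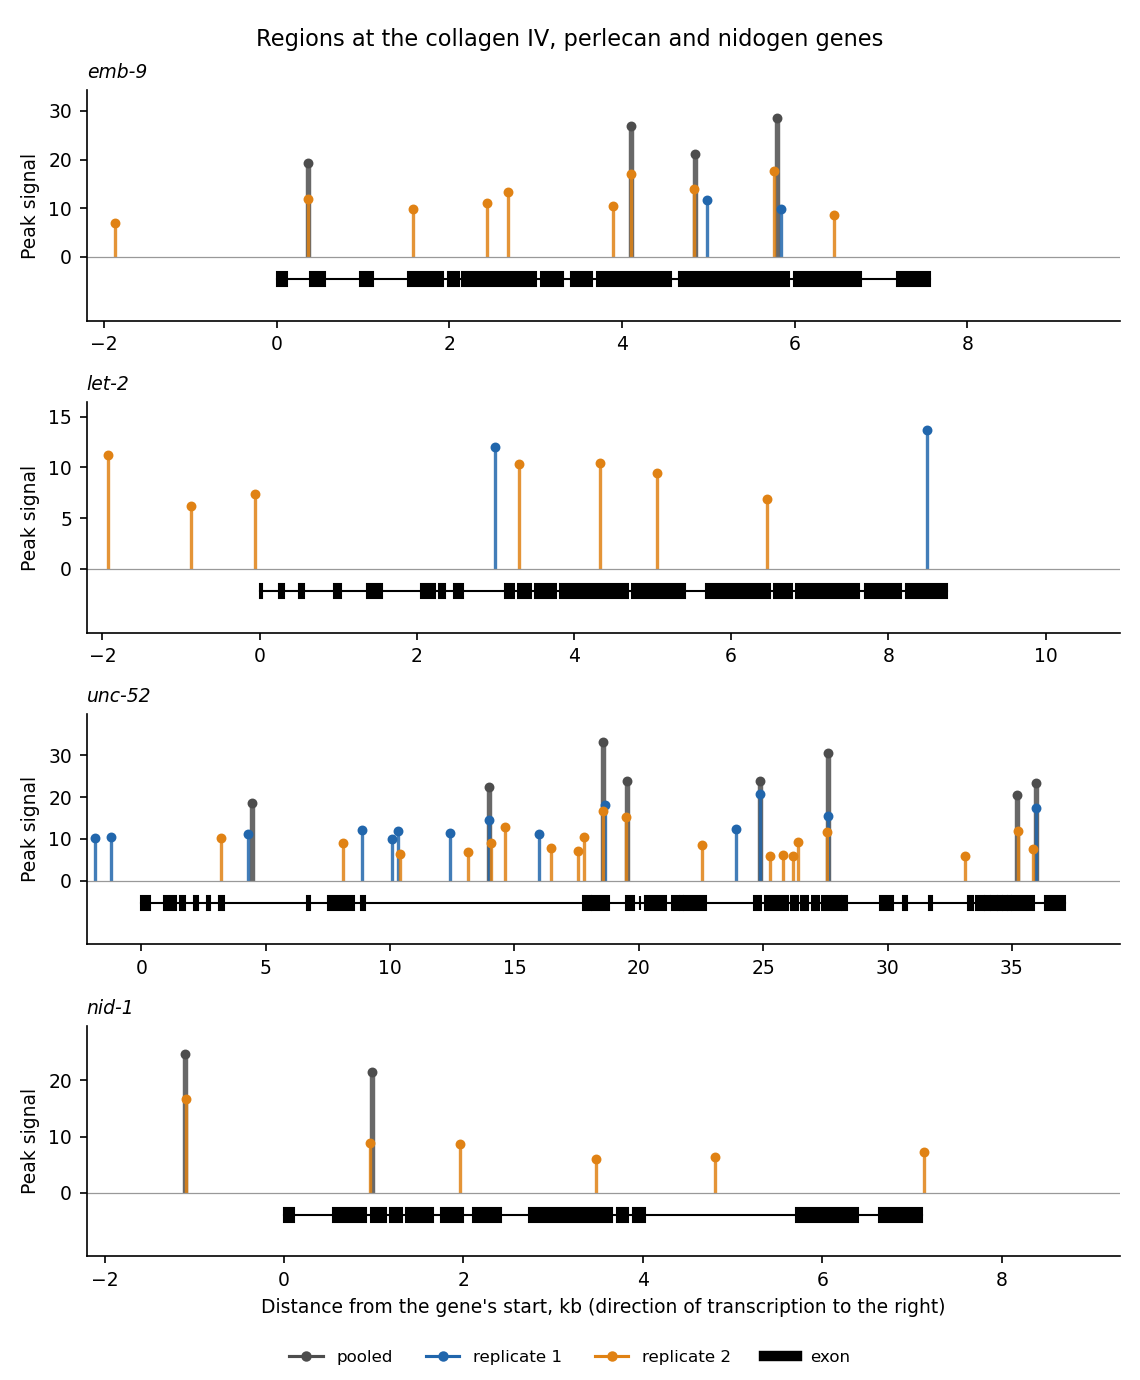
Peak signal at each summit against distance from the gene's start in kb, for emb-9, let-2, unc-52 and nid-1, in the direction of transcription. Lines are summits of the pooled, replicate 1 and replicate 2 lists (each list has its own signal scale) and black boxes are exons; no called region lies here, the tallest pooled line is the unc-52 one of 33.14, and nid-1 has no replicate 1 line.

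In the relaxed lists most members had a summit, and so did most long genes. In the pooled list 8 of the 10 genes had at least 1 (26 summits in all), against 44.3% of all protein-coding genes and 71.6% of those as long as the members. In replicate 1 there were 9 of 10 (31 summits), against 64.2% of all genes and 88.8% of the long genes. In replicate 2 there were 10 of 10 (77 summits), against 84.3% of all genes and 97.4% of the long genes. These shares of members were close to those of other long genes.

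Ordered by the rank of their strongest region, the members ran differently in each list. In the pooled list pxn-1 came first (0.0774% of the list), followed by lam-1 (2.59%), unc-52 (8.52%), emb-9 (16.1%), lam-2 (18.2%), epi-1 (20%), lam-3 (22.2%) and nid-1 (30.1%), while let-2 and pxn-2 had none. In replicate 1 the order after pxn-1 (0.0189%) was lam-1 (1.95%), unc-52 (4.72%), epi-1 (5.01%) and lam-3 (11.9%), and emb-9 (58.5%) and pxn-2 (58.7%) were last of those listed. In replicate 2 pxn-1 (0.0833%) was followed by epi-1 and lam-1 (both 1%) and emb-9 (2.58%). In all 3 lists pxn-1 stood first and lam-1 among the first 3. The pooled values of emb-9, lam-2, epi-1 and lam-3 lay close together (16.1 to 22.2%), and these genes changed places between the libraries, so their order is not settled. emb-9 (2.58%) and nid-1 (3.23%) stood high in replicate 2 but low or missing in replicate 1.

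**Figure D4:**
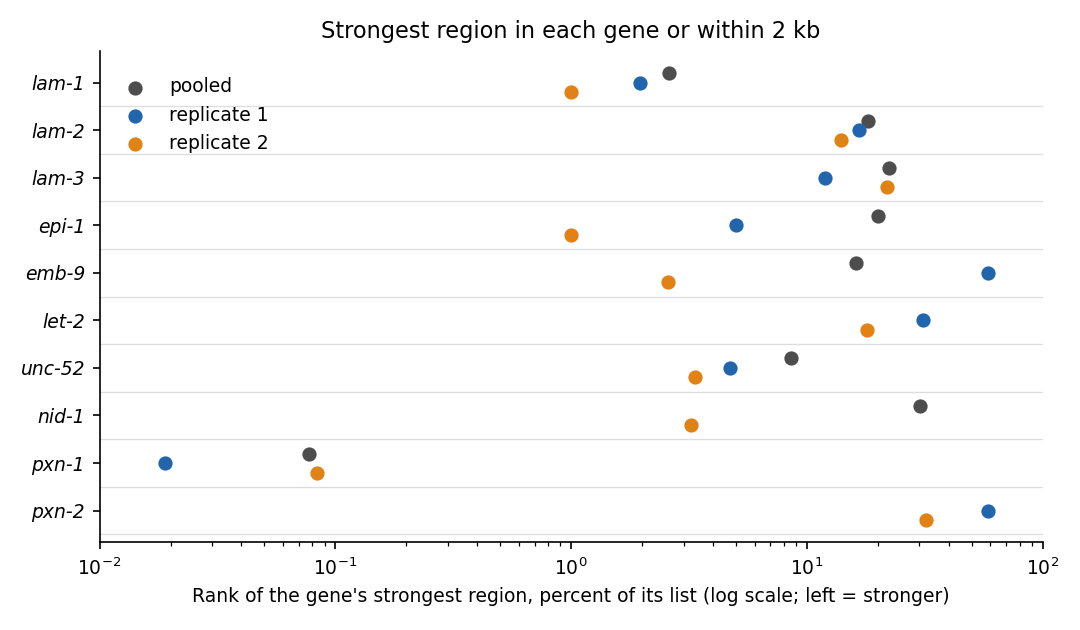
Rank of the strongest region of each gene as a percent of the length of its list (log axis, left is stronger), for the pooled, replicate 1 and replicate 2 lists; a missing point means no summit in the gene or within 2 kb. pxn-1 stands far to the left at 0.0774, 0.0189 and 0.0833%, and the points of emb-9 lie between 2.58 and 58.5%.

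Per length, the members held 1.64 pooled summits per 10 kb over 158.487 kb (exact Poisson 95% interval 1.07 to 2.4). The interval covers counting error only and not the way the genes were chosen. All protein-coding gene windows held 0.925 per 10 kb and those of the long genes 1, so the members' density was 1.77 and 1.63 times as high. The lower end of the members' interval lay only just above both. In replicate 1 the members held 1.96 summits per 10 kb (interval 1.33 to 2.78) against 1.62 for all genes, a ratio of 1.21, and the value for all genes lay inside the interval. In replicate 2 they held 4.86 (interval 3.83 to 6.07) against 3.09, a ratio of 1.57. The ratio was thus higher in replicate 2 and in the pooled list, which includes replicate 2, than in replicate 1. The intervals treat summits as independent counts, and the members' density was not tested against that of other genes.

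Across the genes the pooled density ran from 0 in let-2 and pxn-2 to 3.46 per 10 kb in emb-9. emb-9 also led in replicate 2 with 8.65 per 10 kb, while unc-52 led in replicate 1 with 3.4. pxn-1, with the strongest single region, had 0.866 pooled summits per 10 kb, below the 0.925 of all genes.

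**Figure D5:**
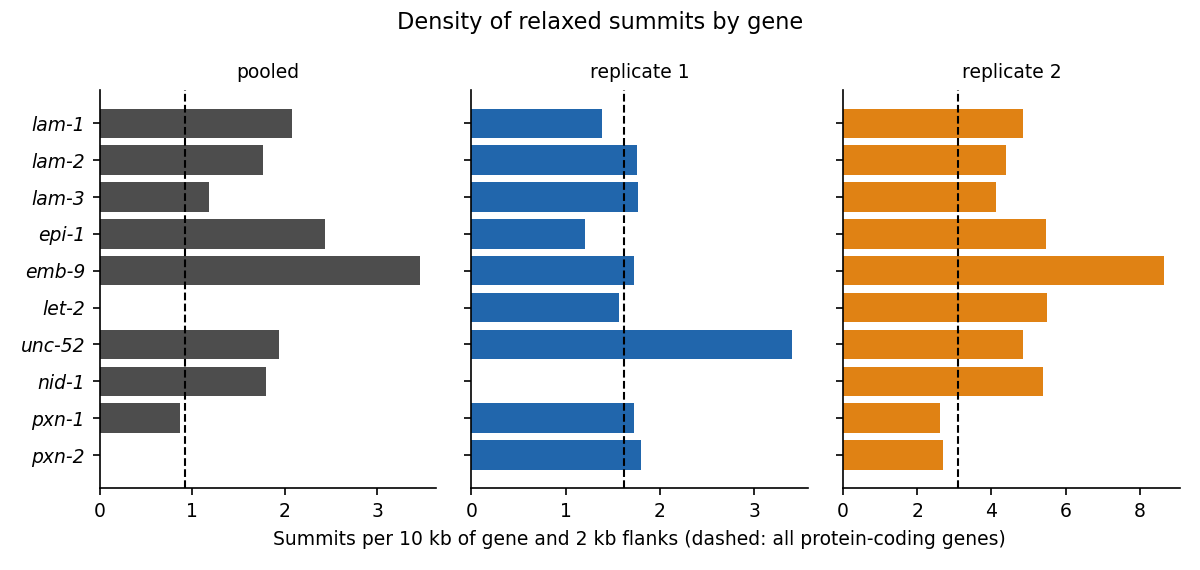
Summits per 10 kb of gene and 2 kb flanks for each of the 10 genes (bars from 0, one panel each for the pooled, replicate 1 and replicate 2 lists), with the density over all protein-coding genes as a dashed line (0.925, 1.62 and 3.09). emb-9 has the longest bar in the pooled list and in replicate 2 (3.46 and 8.65), unc-52 in replicate 1 (3.4).

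The members' pooled summits lay mainly in coding exons. Of the 26, 14 were in a coding exon of the member (53.8%), 7 in an intron, 4 upstream, 1 downstream and 0 in a UTR. Among all pairs of a gene and a pooled summit the coding exon share was 18.8%. Much of the members' sequence is coding, 66.99 of 158.487 kb, so the density is the like-for-like value: 2.09 pooled summits per 10 kb of the members' coding exons against 1.04 over all coding exons. In replicate 2 the values were 6.72 against 4.1, and in replicate 1 they were equal (1.64 against 1.64). The higher density in coding exons was thus seen in replicate 2 and in the pooled list that includes it, not in replicate 1.

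The lists themselves differed in how many of their summits fell in coding exons. These make up 24.6% of the genome and have a GC content of 42.9%, against 32% for introns. They held 2.25% of the called summits (6 summits), 28.3% of the pooled, 25.6% of the replicate 1 and 33.7% of the replicate 2 summits. Among the strongest 10% of each list they held 10.8% of the pooled, 17.4% of the replicate 1 and 29.8% of the replicate 2 summits. The members had 14 summits in that upper part of the replicate 2 list. Of these, 9 were in coding exons (64.3%), against 58.4% of all 77 member summits of that list. In replicate 1 the members had 5, of which 3 were in coding exons (60%, against 38.7% of all 31). The members made up 0.467% of the upper part in replicate 2 (0.257% of the whole list) and 0.315% in replicate 1 (0.195%). GC content of the regions was 43% in the median over the 26 pooled member windows of 100 bp to either side of the summit, against 40.8% over the pooled list. The part of GC content and of library differences in these counts was not tested.

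Of the 26 pooled regions at the members, both replicate lists held 13 (50%, exact 95% interval 29.9 to 70.1), against 58.2% of the whole pooled list. Replicate 1 alone held 2, replicate 2 alone 11 and neither 0. By library, replicate 1 held 57.7% of the members' pooled regions against 73.9% of the whole list, and replicate 2 held 92.3% against 83.7%. Counted from the libraries' own lists, replicate 2 also held 61.3% of the 31 replicate 1 regions at the members (45.3% over that whole list), and replicate 1 held 22.1% of the 77 replicate 2 regions (24.8% over that whole list). The replicate lists differ in length, and a longer list holds more of any set of regions.

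A set of 4 short sequences, chosen with earlier results of these data known, was searched on both strands within 100 bp to either side of each summit. They were GAGAGAGA, TGACACC, GAGACGCA, whose first 4 letters are those of the first, and CAGCTG, an E-box that reads the same on both strands. Neither called member region held any of them, while 12.7%, 4.87%, 10.9% and 8.99% of all called regions did. Of the 26 pooled member windows, 0 held GAGAGAGA, TGACACC or GAGACGCA (4.9%, 3.47% and 3.53% of the whole pooled list). CAGCTG was in 1, the upstream window of lam-2 (5.46% of the whole list). In replicate 1, 0 of the 31 member windows held any of the 4. In replicate 2, of 77 member windows, GAGAGAGA was in 1 (1.3%, against 2.86% of that whole list), TGACACC in 3 (3.9%, against 2.78%), GAGACGCA in 0 (against 2.19%) and CAGCTG in 6 (7.79%, against 5.1%). These shares are low and the windows few, and no difference from the lists was tested.

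The other genes of the pathway, 43 with a matching name in 5 lists, were read in the same way. Among the 43, 1 had a called summit (2.33%, against 2.03% of all protein-coding genes), 30 a pooled one (69.8%, against 44.3%), 35 one in replicate 1 (81.4%, against 64.2%) and 43 one in replicate 2 (100%, against 84.3%). For genes at least as long as the shortest member, these shares were 3.9%, 71.6%, 88.8% and 97.4%. The pathway genes vary in length, from 716 to 48457 bp, so neither background matches them in length. None of the 13 basement membrane receptor genes was called. Among them the strongest pooled regions lay 289 bp upstream of unc-40, the netrin receptor gene (signal 43.29, rank 290), and in an intron of ptp-3, a LAR-type receptor phosphatase gene (42.75, rank 303). Both were stronger than the strongest region of any member except pxn-1 and lam-1.

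Of 7 genes for collagen IV biosynthesis and secretion, dpy-18, which encodes a prolyl 4-hydroxylase alpha subunit, had the called summit (signal 46.02, rank 244 in the called list). It lay 1487 bp past the 3′ end of dpy-18, and its nearest TSS, 389 bp away, was that of the tubulin gene tba-7, with the summit downstream of the start of that gene. Noncoding RNA genes lay within 200 bp of it. pdi-2, which encodes the protein disulfide isomerase that partners such hydroxylases, had a pooled region 14 bp upstream of its TSS (signal 30.71, rank 1052). A noncoding RNA gene lay within 200 bp of that summit. Like the lam-1 region, the dpy-18 one was thus near the lower end of the called list, past the 3′ end of its gene and nearer to the start of a neighbour.

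Of 10 other matrix protein genes 9 had a pooled summit, led by col-99 (37.06, rank 512), a transmembrane collagen gene, and agr-1 (31.29, rank 962), the agrin gene. Of 8 genes for matrix proteases and their inhibitors 6 had one, led by adt-1 (35.2, rank 613) and zmp-1 (32.32, rank 845), which encode metalloproteases. Of the other 4 heme peroxidase genes and the dual oxidase gene bli-3, which supplies hydrogen peroxide, only skpo-2 had one (33.98, rank 703). None of these genes was called. Noncoding RNA genes lay within 200 bp of these col-99 and zmp-1 summits. The TSS nearest to the zmp-1 summit was that of EGAP1.5, 15 bp away.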

How the data were processed

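The deposited peak lists of 2 biological replicates were used, 4 in ce11 coordinates. The 4 ce10 lists and the control are not analysed here. Per the deposited text files, relaxed lists came from alignments of the replicates and a control, and the called list (267 regions) from the pooled and replicate lists. The sources used here do not give aligner, peak caller, settings or depth. The signal column is the authors' score per region. The deposited −log10 q value column, tied at its highest value in 211 called regions, was an alternative ranking.

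Genes came from Ensembl release 115 (WBcel235), sequence from RefSeq. Exon numbers follow the longest transcript, coordinates are 1-based, and regions of different lists were matched by at least 1 bp of overlap. Density windows were merged where they overlap. Intervals (95%) cover counting error only. Python 3.11.15, pandas 2.3.3, NumPy 2.4.6 and SciPy 1.17.1 were used, and the counting was checked on simulated data.

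The members, gene lists and motifs were chosen with earlier results of these data known, so no list was tested. Besides the members, the text names listed pathway genes with a called summit, up to 2 genes per list by pooled signal, and genes with the TSS nearest to a called or strongest summit. Of 44 listed pathway genes, 43 matched by name. Alternatives varied distance, list, overlap, ranking and window.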

Additional observations from a re-analysis of the deposited data

How the results depend on the processing

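The count of 2 members with a called summit was the same with 1 kb or 5 kb around the gene. It was also the same with any overlap of the region. The shares of all protein-coding genes were then 1.5%, 3.54% and 2.11%. The count was 1, pxn-1 alone, in the gene body only (0.416% of all genes) and in the 133 called regions of highest signal (1.08%). The same held for as many strongest regions of replicate 1 or replicate 2 alone as the called list holds (1.95% and 1.94%). The count was 1, lam-1 alone, within 1 kb of a TSS of the gene, through a short transcript (0.941%). In settings chosen after seeing the data, lam-1 was also the 1 member left without called regions near small RNA genes. These were regions within 200 bp of a snoRNA gene (1.8%) or of a tRNA, snoRNA or snRNA gene (1.47%). The pooled count was 8 with 2 kb, with 1 kb and in the gene body only (44.3%, 34.8% and 20.9% of all genes). Without 1 replicate it was 9 (replicate 1 list, 64.2%) and 10 (replicate 2 list, 84.3%).

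The density of 1.64 summits per 10 kb was 1.96 to 4.86 without 1 replicate, from lists of other lengths. Its ratio to all genes was 1.21 to 2.46 over the alternatives and above 1 in each. With replicate lists shortened to the pooled list's length, both held 19.2% of the members' pooled regions in place of 50%, against 24.6% of the whole list; shorter lists hold fewer regions by construction. By q value the pxn-1 region stood at 1.17% of the pooled list in place of 0.0774%, because of ties. No paired analysis was possible because there is 1 group.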
